A study of Mus musculus with 6 samples.

Results

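The genes described here encode the contractile apparatus that fibroblasts acquire when they become myofibroblasts, and which smooth muscle cells carry as a rule. The list held 10 genes of the 27179 in the count files: Acta2, Actg2, Myl9, Myh11, Tpm1, Tpm2, Lmod1, Tagln, Cnn1 and Des. They were chosen by name as genes of this apparatus and matched by Entrez Gene ID. RNA-sequencing had been done on 3 immortalized mouse embryonic fibroblast (MEF) lines of C57BL/6 strain, to compare their transcriptomes in the absence of different clock proteins. All 3 lines lacked Per1 and Per2, whose proteins repress the clock activator CLOCK-BMAL1. Cry/Per_KO cells lacked Cry1 and Cry2 as well, Per/Nr1d_KO cells lacked Nr1d1 and Nr1d2 as well, and Cry/Per/Nr1d_KO cells lacked all 6 genes. Cry/Per/Nr1d_KO cells are 1 clone, made from Cry/Per_KO cells by mutating Nr1d1 and Nr1d2 with CRISPR/Cas9, while Per/Nr1d_KO cells are a line made separately. The cells were grown in DMEM with 10% fetal bovine serum under 5% CO2, and no library analysed here came from a line with an intact clock.

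Each line gave 2 libraries from independent RNA preparations, with 53764390 to 85927236 counts each. Within a line the libraries differed by more than sampling noise (chi-square per degree of freedom 6.69 to 13.3), and log2 CPM values across genes (which are not independent replicates) had a correlation of 0.998 in each pair. With 2 preparations of 1 line per genotype, the p-values measure the spread between preparations, and the genotype cannot be told apart from other differences between the lines. For 2 pairs of libraries the genotype label and the name of the deposited counts disagree: the pair with the genotype Cry/Per/Nr1d_KO was named for Cry/Per_KO, and the pair with the genotype Cry/Per_KO was named for Cry/Per/Nr1d_KO. The 6 targeted genes had 1004 to 9337 normalized counts in every library, so no deletion showed as missing RNA, but their levels differed between the lines. Cry1 and Nr1d1, whose transcription NR1D proteins are known to repress, had 1698 and 1724 (Cry1) and 3158 and 3146 (Nr1d1) in the pair labelled Cry/Per/Nr1d_KO, and 5323 and 5478 (Cry1) and 9337 and 9249 (Nr1d1) in the pair labelled Cry/Per_KO. Both were thus lower in the pair whose label lacks NR1D, an order that goes against the labels and with the names. Cry2, Nr1d2, Per1 and Per2 were also lower in that pair, at means of 6692, 5193, 3064 and 4932. Their means in the pair labelled Cry/Per_KO were 7803, 8135, 5719 and 6736. The genotype labels were kept as the names of the groups, and these 4 libraries are called "the pair labelled" with that genotype throughout. If the names are right in place of the labels, the difference between these pairs changes sign and the comparisons of Per/Nr1d_KO cells with each of them trade places. All 3 pairwise comparisons are therefore given.

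Contraction in non-muscle and smooth muscle cells rests on actin filaments, stabilized by tropomyosins and pulled by myosin, whose activity is set by phosphorylation of its regulatory light chain. In fibroblasts, alpha smooth muscle actin (the product of Acta2) in stress fibers is the usual mark of the myofibroblast state, which TGF-beta and mechanical tension promote. Most genes of this apparatus are targets of serum response factor (SRF) and its cofactors of the myocardin family, which bind the CArG box, and TEAD factors bind near several of them through the MCAT motif.

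Promoter sequences of 7 of the 10 genes were found in a RefSeq table of GRCm38.p6, spanning 250 bases before to 50 bases after the start used in that table, which for the genes shown lies inside the span of the gene given with its values. Distances below are from that start. Those for Acta2 (chr19:34255324-34255623, minus strand), Myl9 (chr2:156775214-156775513, plus strand) and Cnn1 (chr9:22099003-22099302, plus strand) are shown, since Acta2 and Myl9 held CArG-like matches and Cnn1 showed the widest difference between the lines. Capitals mark CArG boxes, with or without 1 C or G in the core, and the MCAT motif CATTCC, which reads GGAATG on the other strand.
Acta2 promoter: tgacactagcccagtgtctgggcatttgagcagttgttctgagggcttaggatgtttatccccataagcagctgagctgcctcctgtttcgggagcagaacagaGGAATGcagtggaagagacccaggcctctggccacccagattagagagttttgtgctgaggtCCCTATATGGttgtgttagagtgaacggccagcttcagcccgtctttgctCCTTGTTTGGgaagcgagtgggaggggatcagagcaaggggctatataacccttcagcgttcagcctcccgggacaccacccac
Myl9 promoter: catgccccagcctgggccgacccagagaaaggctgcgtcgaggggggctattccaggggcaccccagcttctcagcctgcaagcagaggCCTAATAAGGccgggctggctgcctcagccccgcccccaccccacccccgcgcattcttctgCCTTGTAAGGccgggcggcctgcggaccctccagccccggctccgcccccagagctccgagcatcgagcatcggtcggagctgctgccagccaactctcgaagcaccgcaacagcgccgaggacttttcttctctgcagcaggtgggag
Cnn1 promoter: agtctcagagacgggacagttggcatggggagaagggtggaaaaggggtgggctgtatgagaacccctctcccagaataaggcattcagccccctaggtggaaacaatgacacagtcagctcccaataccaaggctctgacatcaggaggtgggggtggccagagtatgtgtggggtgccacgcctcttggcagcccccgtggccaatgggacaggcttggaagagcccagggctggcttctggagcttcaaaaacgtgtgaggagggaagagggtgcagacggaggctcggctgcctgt
The strict CArG box was found in 1 of the 7 promoters, that of Myl9, 161 bases before the start, and in 1.63% of all 32851 promoters in the table. Allowing 1 C or G in the core, which includes the strict matches, Acta2 matched 84 and 34 bases before the start and Myl9 also at 99, and 9.98% of all promoters matched. CATTCC lay 146 bases before the start of Acta2, 130 before that of Lmod1 and 56 before that of Tpm1, and in 14.7% of all promoters. The E-box CACGTG, the site of CLOCK-BMAL1, was in none of the 7 windows (7.15% of all promoters), nor was AGGTCA, the core of the site bound by NR1D proteins (16.3%). Both strands were searched. A match describes the letters in this window only, and for Tagln, Myh11 and Actg2 no promoter was searched.

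Contractile RNA was most abundant in the pair labelled Cry/Per/Nr1d_KO. Summed over the 10 genes, its libraries held 344384 and 336952 normalized counts (counts scaled by edgeR's TMM factors to the mean library size), against 195179 and 196456 in the pair labelled Cry/Per_KO and 190705 and 188524 in Per/Nr1d_KO cells. That is 0.519% and 0.505%, 0.311% and 0.309%, and 0.280% and 0.278% of all counts. The sums are made up differently in each line. Acta2 held 34.7% and 34.4% of the summed counts in the pair labelled Cry/Per/Nr1d_KO, 23.6% and 24.2% in the pair labelled Cry/Per_KO, and 42.6% and 42.7% in Per/Nr1d_KO cells. In bulk RNA, fewer cells expressing a gene and less RNA per cell cannot be told apart.

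The genes did not move as a block. Acta2, Actg2, Myl9, Tpm1, Tpm2 and Tagln (6 of 10) were highest in the pair labelled Cry/Per/Nr1d_KO, Lmod1 and Myh11 were highest in the pair labelled Cry/Per_KO, and Cnn1 and Des were highest in Per/Nr1d_KO cells. Of all 11934 genes tested, 26.85% were highest in the pair labelled Cry/Per/Nr1d_KO, 34.81% in the pair labelled Cry/Per_KO and 38.34% in Per/Nr1d_KO cells. The median log2 ratio of the highest to the lowest line was 1.52 over the 8 contractile genes tested and 0.61 over all genes tested. Cnn1 and Actg2 passed the limit for testing only through the line where they were high, and without them the median was 1.25 over 6 genes.

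**Figure D1:**
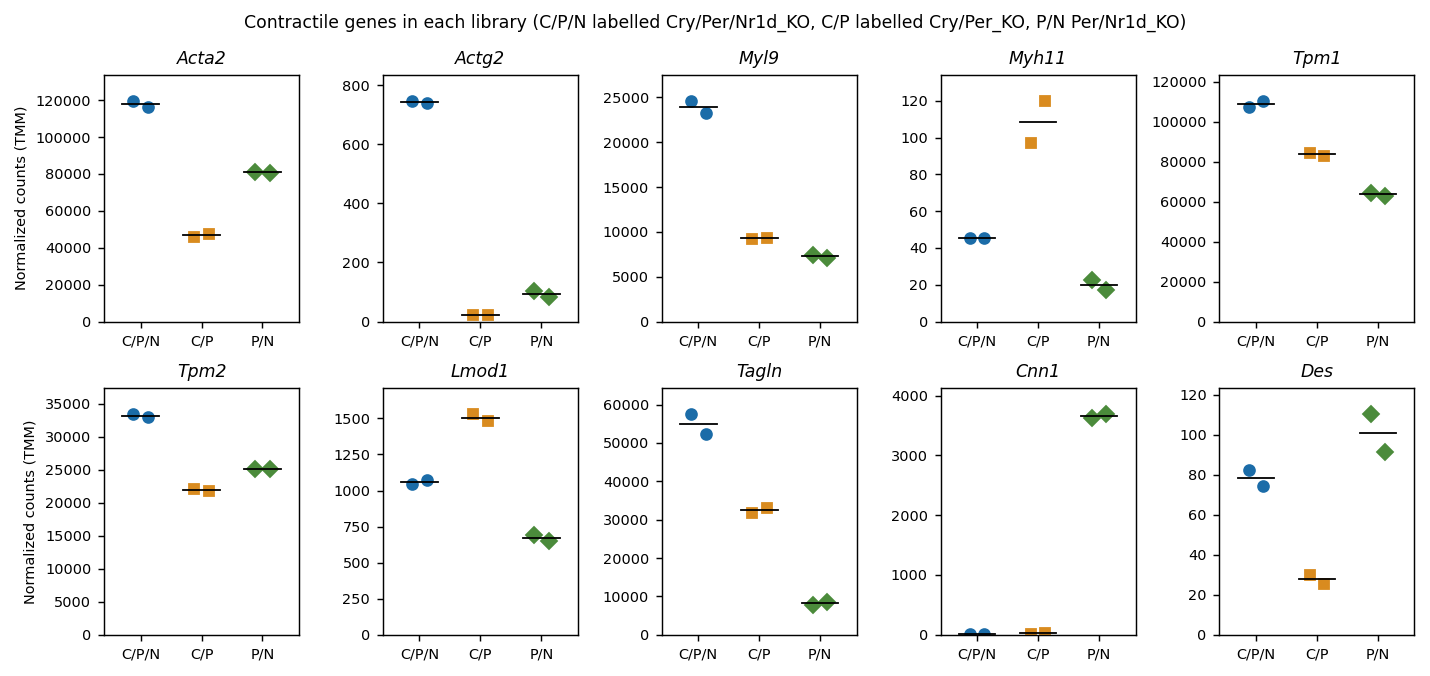
Normalized counts (TMM, linear axes from 0) of the 10 contractile genes in each of the 6 libraries, with a bar at the mean of each pair; C/P/N, C/P and P/N stand for the pair labelled Cry/Per/Nr1d_KO, the pair labelled Cry/Per_KO and Per/Nr1d_KO cells. Acta2 and Actg2 fell in the same order of lines at very different levels, Cnn1 was near the axis in 4 libraries and at 3633 and 3687 in Per/Nr1d_KO cells, and Tagln was lowest where Cnn1 was highest.

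Acta2 and Actg2, the smooth muscle alpha and gamma actins, had the same order of lines. Acta2 (Entrez Gene 11475, chr19:34240336-34255585 of GRCm38) had 119470 and 116052 normalized counts in the pair labelled Cry/Per/Nr1d_KO, 46063 and 47586 in the pair labelled Cry/Per_KO, and 81254 and 80424 in Per/Nr1d_KO cells. The pairs did not overlap, with Per/Nr1d_KO cells between the other two. Here and below, a lack of overlap between pairs of 2 libraries is a description, and its share over all genes was not counted. It also held for Cnn1 between the labelled pairs, where the difference was not detectable (edgeR, Benjamini-Hochberg adjusted p = 0.28). The log2 fold change of Acta2 was -1.33 ± 0.0441 (SE) for labelled Cry/Per_KO against labelled Cry/Per/Nr1d_KO (edgeR, Benjamini-Hochberg adjusted p = 1.6e-12). For Per/Nr1d_KO cells it was -0.54 ± 0.0434 against labelled Cry/Per/Nr1d_KO (edgeR, Benjamini-Hochberg adjusted p = 1.8e-08) and 0.79 ± 0.0436 against labelled Cry/Per_KO (edgeR, Benjamini-Hochberg adjusted p = 1.4e-10). A gene was called changed at an adjusted p under 0.05 and a log2 fold change beyond 0.81 in either direction. This limit on the fold is the one the study used, while its limit on the adjusted p was 1e-22. The first difference was therefore called and the other 2 passed on p alone. The difference of 0.79 lay at the limit, and was called, at 0.81, without replicate 2 of the pair labelled Cry/Per_KO.

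Actg2 (Entrez Gene 11468, chr6:83512909-83536251) was rarer by orders of magnitude and differed more. It had 745.8 and 739.6 normalized counts in the pair labelled Cry/Per/Nr1d_KO, 23.4 and 22.6 in the pair labelled Cry/Per_KO, and 103 and 82.1 in Per/Nr1d_KO cells. Again the pairs did not overlap. The pair labelled Cry/Per_KO rested on 44 reads in all, with a 95% exact Poisson interval of 16.7 to 30.8 normalized counts that covers counting error only. The log2 fold changes were -5.01 ± 0.155 between the labelled pairs (edgeR, Benjamini-Hochberg adjusted p = 7.5e-13), -3.04 ± 0.119 for Per/Nr1d_KO against labelled Cry/Per/Nr1d_KO (edgeR, Benjamini-Hochberg adjusted p = 2.8e-12) and 1.97 ± 0.217 against labelled Cry/Per_KO (edgeR, Benjamini-Hochberg adjusted p = 5.5e-07), and all 3 were called. Actg2 exceeded the limit for testing, a mean of 100 normalized counts over the 6 libraries, only through the pair labelled Cry/Per/Nr1d_KO.

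Reads of the 2 actins can be told apart by sequence. Their coding sequences (1131 and 1128 bases) were identical at 83.8% of the aligned bases, with a longest identical run of 29 bases, and the reads were 50 bases long. The most alike stretch of 60 bases, in exon 8 of both, is shown with the differing bases in capitals (Acta2 chr19:34243320-34243379 and Actg2 chr6:83516271-83516330, both minus strand, GRCm38).
Acta2 coding stretch: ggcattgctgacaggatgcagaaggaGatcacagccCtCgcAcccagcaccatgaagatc
Actg2 coding stretch: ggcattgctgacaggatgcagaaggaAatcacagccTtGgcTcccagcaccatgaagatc
In transcripts of GENCODE vM21, 0.326% of the 50-base stretches of Acta2 were found in other genes, among them Actg1 and actin pseudogenes, and 0 of those of Actg2.

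The myosin genes differed in the order of lines. Myl9, which encodes the regulatory light chain phosphorylated to start contraction (Entrez Gene 98932, chr2:156775408-156781657), had 24576 and 23293 normalized counts in the pair labelled Cry/Per/Nr1d_KO, 9205 and 9351 in the pair labelled Cry/Per_KO, and 7457 and 7134 in Per/Nr1d_KO cells. The first pair stood well above the other two, which were close but did not overlap. Myl9 was called lower in both comparisons with the pair labelled Cry/Per/Nr1d_KO, at log2 fold changes of -1.37 ± 0.0451 (edgeR, Benjamini-Hochberg adjusted p = 1.5e-12) and -1.72 ± 0.0457 (edgeR, Benjamini-Hochberg adjusted p = 2.4e-14). Per/Nr1d_KO and labelled Cry/Per_KO differed by -0.35 ± 0.0454, under the fold limit (edgeR, Benjamini-Hochberg adjusted p = 3.8e-06).

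Myh11, the smooth muscle myosin heavy chain and a marker of differentiated smooth muscle (Entrez Gene 17880, chr16:14194527-14292188), stayed at 17.4 to 120 normalized counts. It had 45.3 and 45.5 in the pair labelled Cry/Per/Nr1d_KO, 96.8 and 120 in the pair labelled Cry/Per_KO, and 22.8 and 17.4 in Per/Nr1d_KO cells. The order is the reverse of that of Actg2 for the labelled pairs, and no pairs overlapped. Its mean fell below the limit for testing. In a fit with the limit lowered to 10, the log2 fold change was 1.26 ± 0.206 between the labelled pairs (edgeR, Benjamini-Hochberg adjusted p = 2.4e-05), -1.21 ± 0.286 for Per/Nr1d_KO against labelled Cry/Per/Nr1d_KO (edgeR, Benjamini-Hochberg adjusted p = 9.1e-04) and -2.47 ± 0.244 against labelled Cry/Per_KO (edgeR, Benjamini-Hochberg adjusted p = 2.5e-08). The Per/Nr1d_KO pair rested on 40 reads in all. Of the 50-base stretches of Myh11, 0.340% also occur in Myh9 or Myh10, non-muscle myosin genes with far higher counts. The part of shared reads in these low counts was not tested.

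The tropomyosins, which wrap the actin filament, were abundant in every library and varied the least. Tpm1 (Entrez Gene 22003, chr9:67022590-67049672) had 107567 and 110326 normalized counts in the pair labelled Cry/Per/Nr1d_KO, 84416 and 82968 in the pair labelled Cry/Per_KO, and 64389 and 62878 in Per/Nr1d_KO cells. Tpm2 (Entrez Gene 22004, chr4:43513726-43523583) had 33373 and 32925, 22015 and 21704, and 25161 and 25129. For neither gene did any pairs overlap, and no difference reached the fold limit. For Tpm1 the log2 fold changes were -0.38 ± 0.0430, -0.78 ± 0.0432 and -0.40 ± 0.0431 in the order used above, and for Tpm2 they were -0.60 ± 0.0403, -0.40 ± 0.0401 and 0.20 ± 0.0402. All 6 differences passed on p alone, with the smallest value for Tpm1 in Per/Nr1d_KO against labelled Cry/Per/Nr1d_KO (edgeR, Benjamini-Hochberg adjusted p = 2.1e-10).

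Lmod1, a leiomodin that nucleates actin filaments in smooth muscle (Entrez Gene 93689, chr1:135324813-135368065), had the order of lines seen for Myh11. It had 1045 and 1076 normalized counts in the pair labelled Cry/Per/Nr1d_KO, 1528 and 1479 in the pair labelled Cry/Per_KO, and 688 and 647 in Per/Nr1d_KO cells. The pairs did not overlap. The drop from labelled Cry/Per_KO to Per/Nr1d_KO was called, with a log2 fold change of -1.18 ± 0.0706 (edgeR, Benjamini-Hochberg adjusted p = 3.9e-10). The other differences, 0.50 ± 0.0675 between the labelled pairs (edgeR, Benjamini-Hochberg adjusted p = 7.0e-06) and -0.67 ± 0.0719 for Per/Nr1d_KO against labelled Cry/Per/Nr1d_KO (edgeR, Benjamini-Hochberg adjusted p = 5.5e-07), did not reach the fold limit.

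The calponin family held the widest difference, and Tagln was lowest in the line where Cnn1 was highest. Tagln encodes transgelin (SM22-alpha), an actin-binding protein that rises early in smooth muscle differentiation (Entrez Gene 21345, chr9:45929628-45936058). It had 57462 and 52407 normalized counts in the pair labelled Cry/Per/Nr1d_KO, 31782 and 33177 in the pair labelled Cry/Per_KO, and 7888 and 8432 in Per/Nr1d_KO cells, with no overlap. The log2 fold change was -2.75 ± 0.0552 for Per/Nr1d_KO against labelled Cry/Per/Nr1d_KO (edgeR, Benjamini-Hochberg adjusted p = 7.8e-16) and -1.99 ± 0.0540 against labelled Cry/Per_KO (edgeR, Benjamini-Hochberg adjusted p = 2.4e-14), and both were called. Between the labelled pairs it was -0.76 ± 0.0515, just under the fold limit (edgeR, Benjamini-Hochberg adjusted p = 3.8e-09). Without replicate 2 of the pair labelled Cry/Per/Nr1d_KO it was -0.82 and was called.

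Cnn1, calponin 1, which binds actin and dampens myosin ATPase (Entrez Gene 12797, chr9:22099221-22109221), had 18.6 and 13.3 normalized counts in the pair labelled Cry/Per/Nr1d_KO, 18.9 and 23.6 in the pair labelled Cry/Per_KO, and 3633 and 3687 in Per/Nr1d_KO cells. It was thus at low counts in both lines without Cry1 and Cry2, and this holds whichever way their labels are read. Per/Nr1d_KO cells were higher by 7.80 ± 0.119 against labelled Cry/Per/Nr1d_KO (edgeR, Benjamini-Hochberg adjusted p = 3.5e-17) and by 7.41 ± 0.116 against labelled Cry/Per_KO (edgeR, Benjamini-Hochberg adjusted p = 3.9e-17) on the log2 scale. The 33 and 41 reads behind the labelled pairs gave 95% exact Poisson intervals of 11.2 to 22.9 and 15.4 to 29.0 normalized counts, which overlapped, and their difference was not detectable at this depth (log2 fold change 0.39 ± 0.298, edgeR, Benjamini-Hochberg adjusted p = 0.28). Cnn1 passed the limit for testing only through Per/Nr1d_KO cells.

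Tagln, Cnn1 and Tpm1 lie on chromosome 9, where all genes together differed between these lines. Over its 657 genes tested, the median log2 fold change was 0.38 between the labelled pairs, -0.46 for Per/Nr1d_KO against labelled Cry/Per/Nr1d_KO and -0.84 against labelled Cry/Per_KO. With these medians subtracted, Tpm1 changed direction in the last comparison, to 0.44. Tagln kept its direction in all 3, at -1.13, -2.29 and -1.15, each past the fold limit. Cnn1 was at 0.01, 8.26 and 8.25. The part of this shift in the differences was not tested. Tagln also shares 67.9% of its exon bases with Pcsk7 and Gm48529 on the opposite strand. The libraries were strand-specific, but the strand setting of the counting was not given in the sources used here. Pcsk7 had log2 fold changes of 0.56, 0.08 and -0.48, against -0.76, -2.75 and -1.99 for Tagln, and no more than 3741 normalized counts in a library.

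Des encodes desmin, the intermediate filament protein of muscle (Entrez Gene 13346, chr1:75360292-75368579), and was low in all lines. It had 82.6 and 74.4 normalized counts in the pair labelled Cry/Per/Nr1d_KO, 30.1 and 25.5 in the pair labelled Cry/Per_KO, and 110 and 91.5 in Per/Nr1d_KO cells. The pair labelled Cry/Per_KO was the lowest, and the other two did not overlap but were close. Under the limit of 10, the log2 fold changes were -1.51 ± 0.235 (edgeR, Benjamini-Hochberg adjusted p = 1.4e-05), 0.33 ± 0.181 (edgeR, Benjamini-Hochberg adjusted p = 0.11) and 1.84 ± 0.225 (edgeR, Benjamini-Hochberg adjusted p = 4.9e-07) in the order used above. Of its exon bases, 5.86% overlap Gm15179 on the opposite strand.

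**Figure D2:**
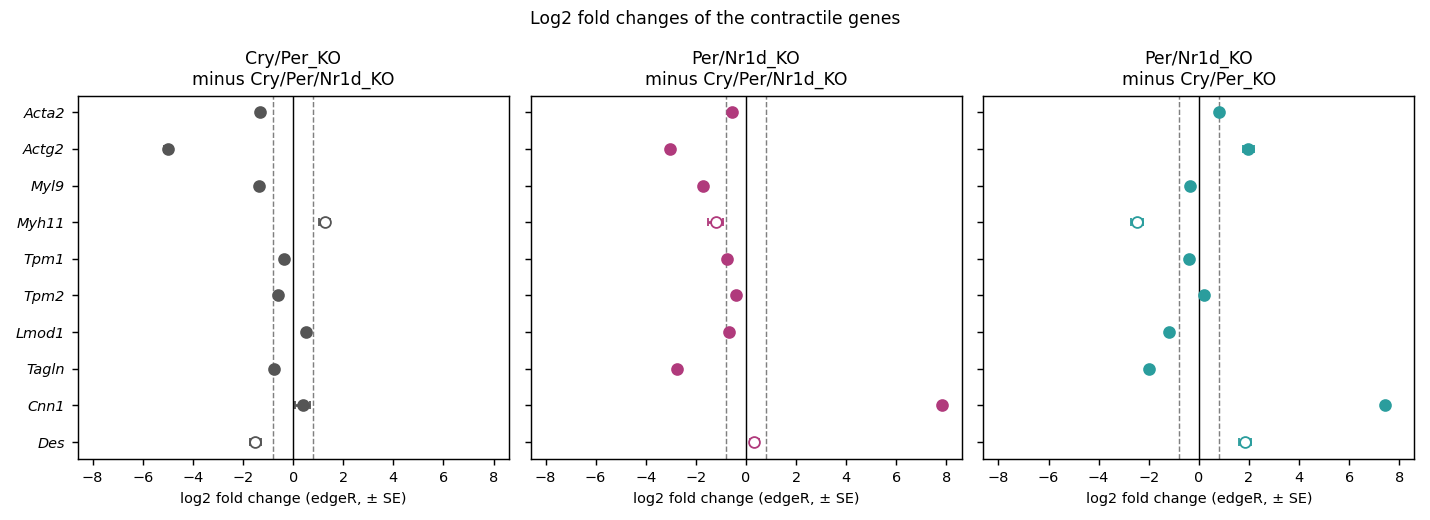
Log2 fold changes (edgeR, bars are ± SE) of the 10 contractile genes in the 3 comparisons, under the genotype labels; filled points come from the fit with a limit of 100 on the mean normalized count, open points (Myh11 and Des) from the fit with a limit of 10, and dashed lines mark the fold limit of 0.81. Cnn1 stood at 7.80 and 7.41 in the comparisons with Per/Nr1d_KO cells, opposite to Tagln at -2.75 and -1.99.

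The first comparison, labelled Cry/Per_KO against labelled Cry/Per/Nr1d_KO, sets a line with NR1D proteins beside a line without them, both lacking CRY and PER, if the labels are right. Acta2, Myl9 and Actg2 were called lower (higher in the line with NR1D proteins, if the names are right), 3 of the 8 genes tested, where 16.8% of all genes tested were called in either direction and 8.95% were called lower. None was called higher by edgeR (7.86% of all genes) or by DESeq2. On p alone, adjusted or not, 1 gene (Lmod1) was higher and 6 were lower, where the adjusted p alone passed 38.1% of all genes as higher and 38.3% as lower. The median log2 fold change over the 8 genes was -0.68, beside -0.003 over all genes tested.

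The second comparison, Per/Nr1d_KO against labelled Cry/Per/Nr1d_KO, sets a line with CRY proteins beside a line without them. Both lack PER, and both lack NR1D if the labels are right. Tagln, Myl9 and Actg2 were called lower and Cnn1 was called higher, 4 of the 8 genes tested, beside 20.7% of all genes called in either direction, 9.35% lower and 11.3% higher. On the adjusted p alone all 8 passed, 1 higher and 7 lower, beside 38.7% and 37.1% of all genes. The median was -0.72, beside 0.011 over all genes tested. The median absolute log2 fold change was 1.25, or 0.72 without Cnn1 and Actg2, beside 0.34. In the third comparison, Per/Nr1d_KO against labelled Cry/Per_KO, where the lines differ in CRY and, if the labels are right, in NR1D as well, Tagln and Lmod1 were called lower and Cnn1 and Actg2 were called higher, 4 of 8, beside 29.0% of all genes, 15.2% higher and 13.8% lower. On the adjusted p alone 4 were higher and 4 lower, beside 42.8% and 39.3%. Its median was -0.07, or -0.37 without Cnn1 and Actg2, beside 0.035, and its median absolute log2 fold change was 0.98, or 0.59 without them, beside 0.46. Since Cnn1 and Actg2 entered through 1 line only, these counts and medians are descriptions. Without them, 2 of 6 genes were called in each comparison, all lower. The 3 comparisons share libraries and are not independent of each other.

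**Figure D3:**
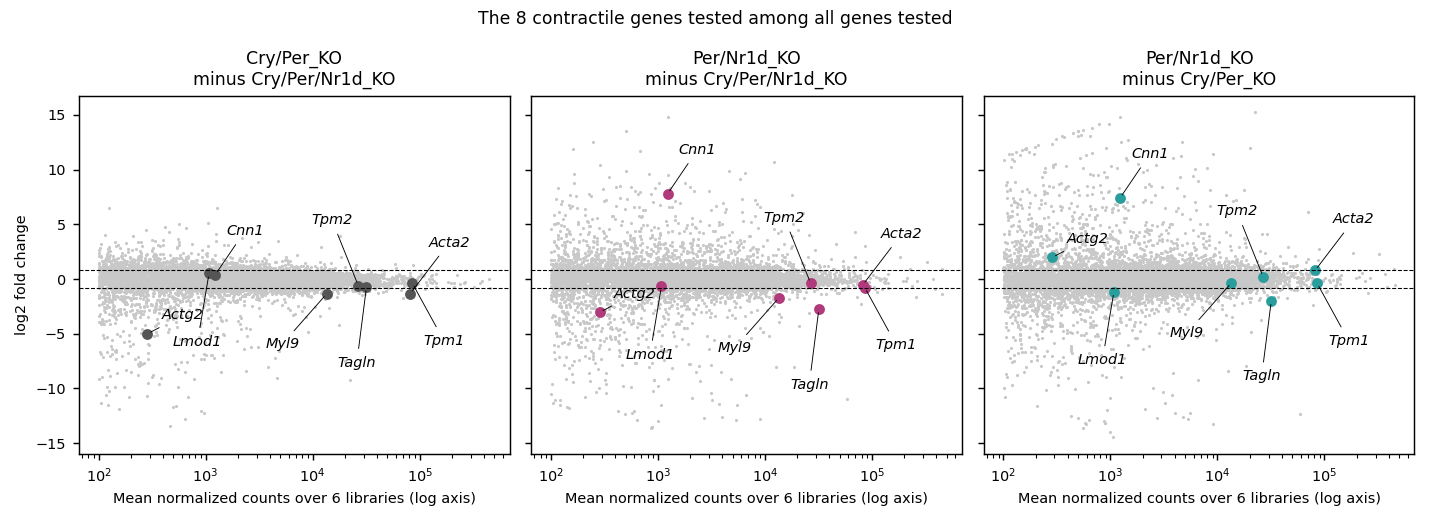
Log2 fold change against mean normalized counts over the 6 libraries (log axis) for all 11934 genes tested (grey) and the 8 contractile genes tested (large points, named), under the genotype labels, with dashed lines at the fold limit of 0.81. Acta2, Tpm1 and Tagln sit among the most abundant genes, where few grey points lie outside the limit, and Cnn1 and Actg2 sit at lower counts, where more do.

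Several contractile genes were set beside paralogs that other cells use, on the scale of CPM (counts scaled to library size) per kilobase of exon. The length holds the exon bases of all annotated transcripts of a gene, 6485 for Tpm1 and 2196 for Acta2, so ranks between genes depend on it. By counts, Tpm1 was above Acta2 in the pair labelled Cry/Per_KO, at means of 83692 and 46824. Per kilobase, Acta2 was the most abundant of the 10 genes in every line. It was at 814 ± 16.7 (SD, n = 2) in the pair labelled Cry/Per/Nr1d_KO, 324 ± 7.44 in the pair labelled Cry/Per_KO and 559 ± 4.06 in Per/Nr1d_KO cells. Actb, the cytoplasmic beta actin, was at 1243 ± 34.7, 995 ± 65.2 and 1077 ± 52.1. The ratio of Acta2 to Actb was 0.678 and 0.633, 0.336 and 0.316, and 0.504 and 0.535 in the individual libraries. Acta2 thus varied more between the lines than Actb did, whose log2 differences were -0.32, -0.21 and 0.11. The level of Actg1, the other cytoplasmic actin, could not be read from these counts, since 37.4% of its 50-base stretches also occur in other genes.

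Transgelins exchanged rank. The ratio of Tagln to Tagln2, the transgelin of many non-muscle cells, was 3.33 and 3.26 in the pair labelled Cry/Per/Nr1d_KO, 2.39 and 2.52 in the pair labelled Cry/Per_KO, and 0.278 and 0.286 in Per/Nr1d_KO cells. Tagln2 itself was called higher in Per/Nr1d_KO cells than in labelled Cry/Per_KO, by 1.13 on the log2 scale (edgeR, Benjamini-Hochberg adjusted p = 3.1e-12). Cnn1 remained below Cnn2, the calponin of non-muscle cells, in every library, at a ratio of 0.117 and 0.118 in Per/Nr1d_KO cells and at most 0.000488 elsewhere. Cnn2 was called lower in Per/Nr1d_KO than in labelled Cry/Per/Nr1d_KO (log2 fold change -0.91, edgeR, Benjamini-Hochberg adjusted p = 4.2e-11), in the direction opposite to Cnn1. Cnn3 and Tpm3 were called lower in labelled Cry/Per_KO than in labelled Cry/Per/Nr1d_KO, at -1.19 and -0.99, and higher in Per/Nr1d_KO than in labelled Cry/Per_KO, at 1.07 and 1.02. Both lie on chromosome 3, whose 577 genes tested had medians of -0.65 and 0.88 in these comparisons, and less those medians their values were -0.54 and -0.35, and 0.19 and 0.14, under the fold limit. Of 14 paralogs tested, 2, 2 and 4 were called in the 3 comparisons, beside 16.8%, 20.7% and 29.0% of all genes. Of the 50-base stretches of Cnn3 and Tpm3, 10.3% and 23.2% are shared with other genes. Myh9 and Myh10, the non-muscle myosin heavy chains, were at 107 to 160 and 37.2 to 46.6 CPM per kilobase in the line means, while Myh11 did not exceed 0.216. Vim, the intermediate filament protein of fibroblasts, was at 273 to 499, and Des at 0.112 to 0.408.

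**Figure D4:**
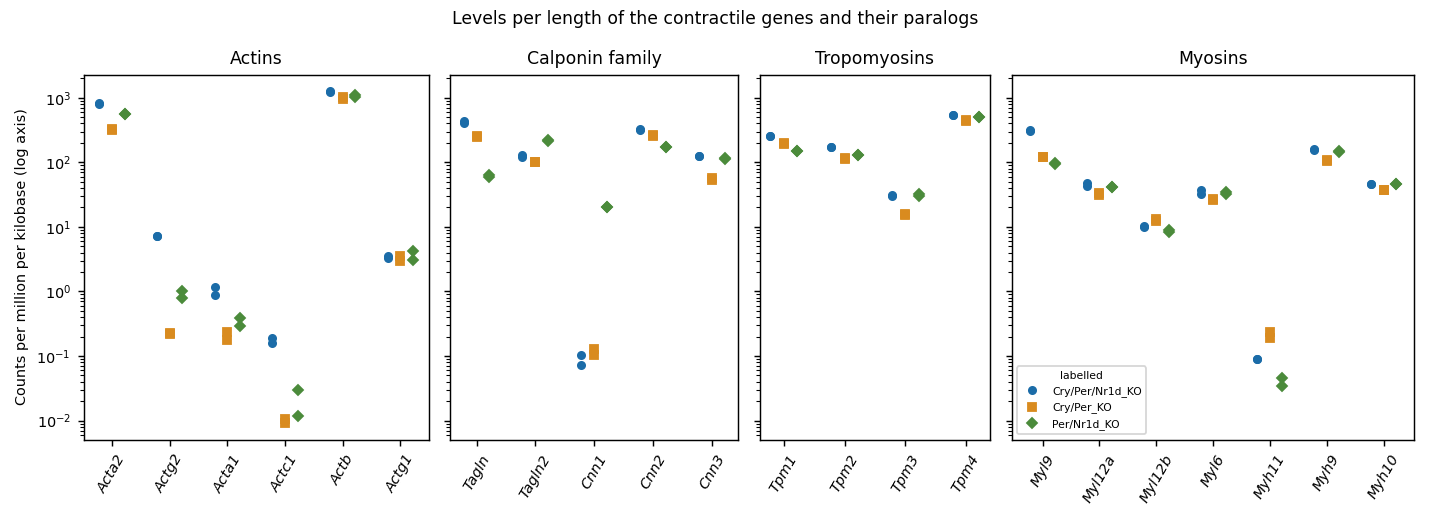
Levels as CPM per kilobase of exon (log axis) for contractile genes and their paralogs in the actin, calponin, tropomyosin and myosin families, 1 point per library. Tagln lies above Tagln2 in 4 libraries and below it in the 2 of Per/Nr1d_KO cells, where Cnn1 is at 20.2 and 20.5, while Actb, Tpm4 and Myh10 stay within a narrow range. Myh9 is at 107 to 160 in the line means, lowest in the pair labelled Cry/Per_KO.

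SRF and its myocardin-related cofactors Mrtfa and Mrtfb, common regulators of this apparatus, stayed under the fold limit in all 3 comparisons. Srf had 8951 and 8697 normalized counts in the pair labelled Cry/Per/Nr1d_KO, 6976 and 7388 in the pair labelled Cry/Per_KO, and 8349 and 7627 in Per/Nr1d_KO cells, and its log2 fold changes were -0.30, -0.15 and 0.15. The log2 fold changes of Mrtfa were -0.03, 0.32 and 0.36 and those of Mrtfb were 0.17, -0.26 and -0.43. All these differences of the 3 genes passed on the adjusted p alone, except that of Mrtfa in the first comparison (edgeR, Benjamini-Hochberg adjusted p = 0.53). Of 17 genes listed as SRF and TEAD factors and their cofactors, 16 were tested. In the first comparison edgeR and DESeq2 called 0 of them, where 16.8% of all genes were called. On the adjusted p alone 2 were higher and 8 lower, beside 38.1% and 38.3% of all genes. At an unadjusted p under 0.05, 11 of 16 passed, and the shares of all genes at that limit can only be larger than these. In the second comparison 1 was called higher and 4 were called lower, and in the third 2 and 3, or 31.25% of the list in each, where 20.7% and 29.0% of all genes were called (medians -0.14, -0.23 and -0.27). On the adjusted p alone 4 were higher and 10 lower in the second, beside 38.7% and 37.1% of all genes. In the third 5 were higher and 9 lower on it, beside 42.8% and 39.3%. Csrp2, a LIM protein that works with SRF in smooth muscle, was called higher in Per/Nr1d_KO cells by 2.90 and 3.44. Its counts were 2546 and 2541, 1733 and 1777, and 18931 and 19092. Klf4, which represses contractile genes in smooth muscle, was called lower there, at -1.43 and -1.30, as was Tead4, at -1.64 and -1.09. Scai, a repressor of myocardin-related factors, was called lower at -0.84 and -0.91. Less the medians of their chromosomes, Scai in the second comparison (-0.73) and Tead4 in the third (-0.68) were under the fold limit. Tead1 was called lower in the second comparison (-0.95) and Tead2, at 6905 and 6623 against 3265 and 3497 normalized counts, was called higher in the third. Myocd, the cofactor restricted to smooth and cardiac muscle, was below the limit for testing, at 6.22 and 7.77, 1.11 and 0, and 43.1 and 48.9 normalized counts. Under the limit of 10 it was called in all 3 comparisons, lower in the first and higher in the others. The log2 fold change of the second was 2.73 ± 0.382 (edgeR, Benjamini-Hochberg adjusted p = 3.5e-06). Myocd passed the limit of 10 only through Per/Nr1d_KO cells, so these calls are descriptions. The pair labelled Cry/Per_KO held 1 read of it in all, so no fold against that pair is given.

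Other smooth muscle genes changed in both directions. Of 18 listed, 14 were tested. In the first comparison 0 were called higher by edgeR and 6 were called lower (6 called in all by DESeq2), beside 7.86% and 8.95% of all genes. At an unadjusted p under 0.05, 2 were higher and 9 lower. On the adjusted p alone these were 2 and 8, beside 38.1% and 38.3% of all genes. The second comparison had 5 called higher and 2 called lower, beside 11.3% and 9.35% of all genes. The third had 7 called higher and 3 called lower, beside 15.2% and 13.8%. On the adjusted p alone, 6 were higher and 5 lower in the second, beside 38.7% and 37.1% of all genes, and 8 and 5 in the third, beside 42.8% and 39.3%. Ldb3, Mustn1 and Itga8 passed the limit for testing only through the line where each was highest. Without these 3, 0 were called higher and 3 lower in the first comparison, 3 and 1 in the second, and 5 and 2 in the third, of 11 genes. The medians were -0.24, -0.06 and 0.57, and without them -0.17, -0.09 and 0.18. Ldb3 and Synm, which encode a Z-disc protein and the intermediate filament protein synemin, followed the order of Des. Ldb3 had 187 and 130 normalized counts in the pair labelled Cry/Per/Nr1d_KO, 37.8 and 34.4 in the pair labelled Cry/Per_KO, and 1006 and 895 in Per/Nr1d_KO cells, with log2 fold changes of -2.16, 2.56 and 4.71. Synm changed by -1.53, 2.39 and 3.91, and Mustn1 by -1.62, 1.84 and 3.46. Smtn, smoothelin, had 4877 and 4773, 4196 and 4385, and 10358 and 9652 normalized counts and was called higher in Per/Nr1d_KO cells in both comparisons. Itga8, the integrin alpha 8 chain, went the other way, with 563 and 634, 84.6 and 83.5, and 3.80 and 3.94 normalized counts. Ppp1r12b, a regulatory subunit of myosin phosphatase, was called lower in Per/Nr1d_KO cells, at -1.42 and -1.35.

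Of the TGF-beta pathway and myofibroblast matrix genes, more were called higher than lower in Per/Nr1d_KO cells. Of 22 listed, 21 were tested. In the first comparison 1 was called higher and 5 were called lower, in the second 11 and 2, and in the third 12 and 2. The shares of all genes called higher and lower were 7.86% and 8.95%, 11.3% and 9.35%, and 15.2% and 13.8%. The list had medians of 0.10, 0.91 and 0.99, beside -0.003, 0.011 and 0.035 over all genes tested. Col3a1, type III collagen, had 836 and 801 normalized counts in the pair labelled Cry/Per/Nr1d_KO, 289 and 296 in the pair labelled Cry/Per_KO, and 42810 and 43797 in Per/Nr1d_KO cells. Lox, the enzyme that cross-links collagen, had 22167 and 23039, 53680 and 56401, and 187503 and 177268. Tgfb2 was called higher in Per/Nr1d_KO cells by 2.96 and 3.42, and Tgfb3 by 1.15 and 0.99. Tgfb1, Tgfbr1, Tgfbr2, Smad3, Smad4 and Smad7 stayed under the fold limit in all 3 comparisons. Smad2 was called lower in the third, at -0.91, or -0.46 and under the fold limit less the median of chromosome 18. Postn, periostin, was highest in the pair labelled Cry/Per/Nr1d_KO, with 24867 and 26388, 2450 and 2332, and 7422 and 7318 normalized counts. Ccn2, a target of TGF-beta and of TEAD factors, had log2 fold changes of -1.63, -0.22 and 1.41, the order of lines seen for Acta2. Pdgfrb, a receptor of mesenchymal cells, was called lower in Per/Nr1d_KO cells, at -1.33 and -1.34.

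**Figure D5:**
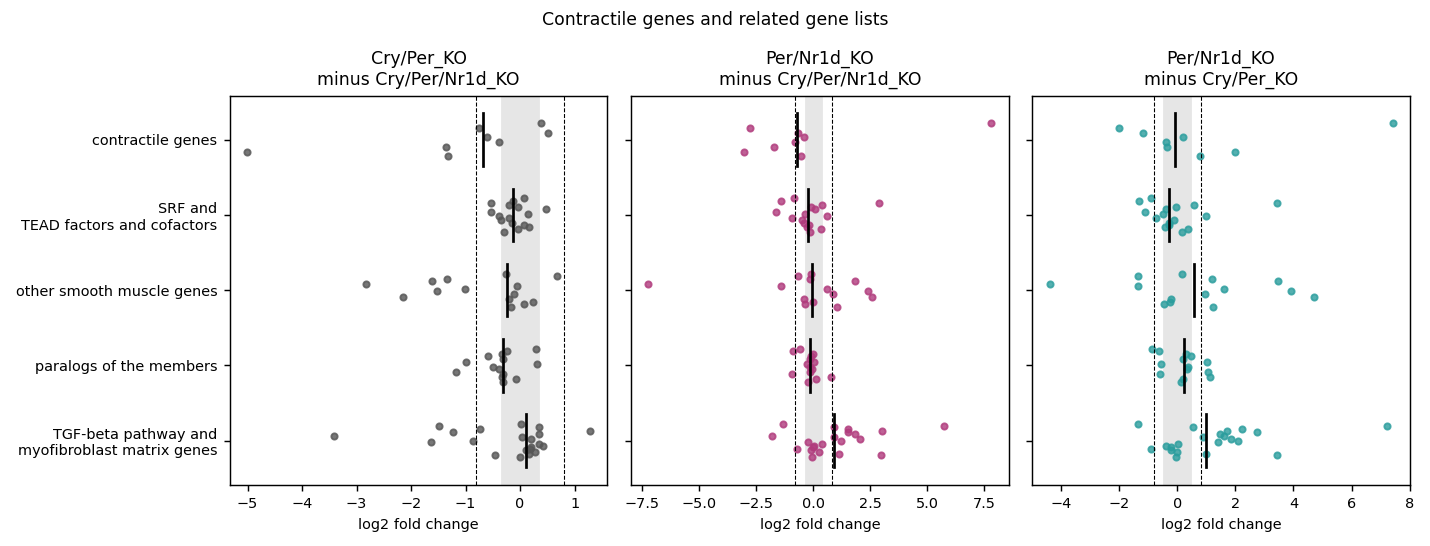
Log2 fold changes of the tested genes of the contractile list and of 4 related lists in the 3 comparisons, under the genotype labels (1 point per gene; the black bar is the median of the list, the grey band the middle 50% of all genes tested, and dashed lines mark the fold limit of 0.81). The median of the TGF-beta and matrix list lies at 0.91 and 0.99 in the comparisons with Per/Nr1d_KO cells, while that of the contractile genes lies at -0.72 and -0.07.

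Markers of other cell types were counted in the same libraries. In every line, 9 of 10 fibroblast markers averaged 100 normalized counts or more, and Thy1 did not exceed 6.22. The list summed to 1014676 to 1067996 in the pair labelled Cry/Per/Nr1d_KO and 899313 to 923122 in the pair labelled Cry/Per_KO. In Per/Nr1d_KO cells it summed to 1810643 to 1833534. Col1a1, Col1a2, Col3a1, Fn1 and Sparc were highest in Per/Nr1d_KO cells. Vim, Pdgfra, Pdgfrb and S100a4 were lowest there (S100a4 means of 63132, 28657 and 8870 in the same order). The 8 markers of mature smooth muscle, of which Myh11, Cnn1 and Lmod1 belong to the contractile list, summed to 6246 to 6398 in the pair labelled Cry/Per/Nr1d_KO, 5947 to 6118 in the pair labelled Cry/Per_KO and 16038 to 16848 in Per/Nr1d_KO cells. Most of the difference in Per/Nr1d_KO cells lay in Smtn (means of 4825, 4291 and 10005 in the same order) and Cnn1 (at most 21.2 in a labelled pair and 3660 in Per/Nr1d_KO), and Myh11 (45.4, 108 and 20.1) and Lmod1 (1061, 1503 and 668) were lowest there. The 12 skeletal and cardiac muscle markers summed to 675 to 699, 46.8 to 58.9 and 146 to 165. Tnnt2 made up most of this in the pair labelled Cry/Per/Nr1d_KO, at 483 and 526, and was at 13.4 and 14.7 and at 65.9 and 58.4 in the others. Myog did not exceed 1.58 and Myod1 did not exceed 2.22. The 6 pericyte markers summed to 13652 to 14812, 17559 to 18547 and 9429 to 9598. Cspg4 made up most of the sum in the labelled pairs (means of 11441, 15101 and 3812), while Notch3 (847, 1933 and 2900) and Mcam (1895, 1014 and 2789) were highest in Per/Nr1d_KO cells. The 4 adipocyte markers summed to 175 to 194, 116 to 148 and 2355 to 2430, of which Fabp4 made up most. Pparg averaged 0.56 in each labelled pair and 869 in Per/Nr1d_KO cells. Adipoq and Plin1 did not exceed 6.87 in a library. The epithelial, endothelial and blood lists did not exceed 333 in a library, with Cldn5 and Hba-a1 at 0 in all 6 (where as many as 3 reads could have gone unseen). The part of these markers in the differences of the contractile genes was not tested.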

How the data were processed

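Counts per gene are as the authors deposited them, without normalization, in 1 file of whole numbers for each library under Entrez Gene IDs. The authors had sequenced poly-A RNA of the 3 MEF lines with a strand-specific kit (single-end, 50 bases), and used STAR for mapping to mm10 and featureCounts for counting. Their DESeq2 tables of fold changes and p-values were not used. Treatment of multi-mapping reads was not given in the sources used here. RefSeq's GRCm38.p6 table, the assembly of mm10, gave symbols and coordinates (92.99% of 27179 IDs matched), and GENCODE vM21 gave exon lengths and shared sequence.

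The analysis used edgeR 4.0.16, limma 3.58.1 and DESeq2 1.42.0 in R 4.3.3. One quasi-likelihood fit with TMM scaling held all 6 libraries in 3 groups. Genes averaging 100 normalized counts or more were tested (11934), with Benjamini-Hochberg adjustment over all of them, and called at an adjusted p under 0.05 and past the fold limit. The standard error is the log2 fold change divided by the square root of F. The biological coefficient of variation was 0.0393. The steps were tested on simulated data. Alternatives were DESeq2, other scaling, filters and limits, each comparison fitted alone, a block for the replicate number, each library left out, exchanged genotype labels and, added after seeing the data, subtracted chromosome medians. One further gene list that was analysed is not reported here. The members and lists were chosen with earlier results of these data known. Genes named were the members, their paralogs, the SRF and TEAD list and, from each list and comparison, the 2 highest and 2 lowest called genes, of which some are printed. Other genes named were chosen after their values were seen.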

Additional observations from a re-analysis of the deposited data

How the results depend on the processing

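Under the alternatives other than exchanged labels and subtracted chromosome medians, 334 of 334 log2 fold changes of single contractile genes kept their direction and 319 also kept their call. DESeq2 at an adjusted p under 0.05 and median-of-ratios size factors, which moved the median of all genes by at most 0.010, changed no call of a contractile gene. DESeq2 at an adjusted p under 1e-22 lost 1, Actg2 in Per/Nr1d_KO against labelled Cry/Per_KO (1.98). With no limit on the fold, 7, 8 and 8 of the 8 genes were called in the 3 comparisons in the order of the report. With no filter or a mean of at least 10, 5 were called in the first comparison, Myh11 higher and Des lower being the additions. Myh11 lower made 5 in the second, and Myh11 lower and Des higher made 6 in the third. Under the limit of 10, the SRF and TEAD list had 1, 6 and 6 calls. Myocd was the addition in each, and it passed that limit only through Per/Nr1d_KO cells. The paralogs then had 6, 4 and 6 calls of 18, since more genes were tested. Of all genes, 22.4%, 26.5% and 33.8% were then called. With the compared groups alone, Cnn1 in the first comparison and Actg2 in the third fell under the filter.

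With the genotype labels exchanged, the 3 calls of the first comparison turned to higher. Its log2 fold changes became 1.33 for Acta2, 5.01 for Actg2, 1.37 for Myl9, 0.38 for Tpm1, 0.60 for Tpm2, 0.76 for Tagln, -0.50 for Lmod1 and -0.39 for Cnn1. Per/Nr1d_KO against Cry/Per/Nr1d_KO became 0.79 for Acta2, 1.97 for Actg2 and 0.20 for Tpm2, and against Cry/Per_KO it became -0.54, -3.04 and -0.40. Myl9, at -0.35, lost its call in the second comparison and gained one in the third, at -1.72, and Lmod1 gained one in the second, at -1.18, and lost it in the third, at -0.67. With chromosome medians subtracted, Tpm1 in the third comparison became 0.44, since its chromosome median lies below its own value. Lmod1 in the second comparison, at -0.95, and Tagln in the first passed the fold limit.

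Leaving out 1 library at a time gave 3 to 4, 4 to 4 and 4 to 5 called contractile genes. With the replicate number as a block, no call of a contractile gene changed and 3, 4 and 4 were called. Deviations of same-numbered libraries correlated at -0.21, -0.02 and -0.10, none of them positive. With 2 libraries a line, these values cannot settle whether the numbers stand for batches, which was not tested.

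Each SD rests on 2 libraries of 1 line. Depth limits Cnn1, Actg2, Myh11 and Des, which rested on 33 to 53 reads in the pair where each was lowest.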
